A study of Mus musculus with 32 samples.

Results

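Fbxl22, Tnfaip2, Card14, Scn3b, Clu, Tenm3, Snhg12, Dusp7, Phex and Slc2a9 are 10 of the 45616 gene names on a one-colour mouse array, and they were chosen by a small p-value for genotype in tumor stroma. The hosts were mice bearing MCG 101, a transplantable mouse sarcoma, and were labelled EP2+/+ (wild type) or EP2-/- (knockout). EP2 is the prostaglandin E2 receptor encoded by Ptger2. Total RNA of tumor and of tumor stroma gave 4 groups, stroma and tumor of each genotype, each of 8 arrays with 4 hosts labelled female and 4 male. MCG 101 cells had been implanted in all hosts, so no group shows tissue without a tumor, and the genotype is that of the host, since the labels give none for the implanted cells. The labels give no host age and do not say how stroma was cut from tumor. Each gene is shown by its brightest probe over the 32 arrays, and every level below is the log2 signal minus the log2 of that array's 75th percentile, so 0 is a probe at that percentile. Levels of different probes are not compared with each other.

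EP2 couples to Gs and raises cyclic AMP, and prostaglandin E2 is a product of cyclooxygenases in inflamed tissue and in many tumors. Stroma around an implanted tumor can hold fibroblasts, vessels, leukocytes, fat and muscle of the host together with invading tumor cells. The 10 genes belong to different families. Fbxl22 encodes an F-box protein of striated muscle that brings substrates to a ubiquitin ligase, Scn3b an auxiliary beta subunit of voltage-gated sodium channels, and Clu clusterin, a secreted chaperone that also restrains complement. Tnfaip2 is induced by tumor necrosis factor and takes part in forming membrane nanotubes, Card14 encodes a scaffold that joins BCL10 and MALT1 to activate NF-kB, and Slc2a9 encodes a urate transporter. Tenm3 encodes a teneurin, a transmembrane adhesion protein that binds latrophilins, and Dusp7 a phosphatase that inactivates ERK. Phex encodes a membrane endopeptidase of bone cells whose loss causes X-linked hypophosphatemia, and Snhg12 is a long noncoding RNA that hosts small nucleolar RNAs in its introns.

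Between 49.99% and 76.3% of probes were well above background per array, and no spot was saturated. Wild-type stroma 65 and 82 stood apart: on the first principal component they lay at -68.5 and -113, among the tumor arrays, with Ckm (muscle creatine kinase) at 2.20 and -0.17 and Aurka (a mitotic kinase) at 4.86 and 4.99. Wild-type stroma 9, knockout stroma 95 and 99 and knockout tumor 95 and 99, all labelled male, had a mean of 4 Y-linked genes below Xist, against their sex label. Knockout tumor 95 was the least clear of them. Its Xist (-5.29) was not well above background, while Eif2s3y, a Y-linked gene, was (-3.64). The single Ptger2 probe was no lower in the knockout (-3.84 to -2.38 in knockout against -5.65 to -2.58 in wild-type stroma), and its place relative to the deleted part is not known, so it checks no label. The mean of 22 skeletal muscle markers ran from 0.93 to 8.95 in wild-type stroma and from 6.06 to 8.33 in knockout stroma. That of 19 cell cycle genes ran from -3.66 to 3.82 and from -1.20 to 2.43. The -3.66 was that of wild-type stroma 9 alone, and the next lowest wild-type stroma array was at 0.73. Array 9 also had the highest muscle mean (8.95) and the highest first principal component (228). In the stroma genotype fit 22 of 22 muscle markers had a positive and 19 of 19 cell cycle genes a negative difference, with medians of 1.84 and -1.56, and none of either list passed the test.

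The values that chose the genes are given first, as a description. In the limma fit of 16 stroma arrays none of 24784 genes passed an adjusted p under 0.05, while 28.2% had an unadjusted p under 0.05. The 9 members in that fit held ranks 4, 5, 6, 9, 10, 13, 16, 17 and 53 by p, so they are not the first 10 of the list. Differences are knockout minus wild type on the log2 scale, with the standard error of the fit, and their size cannot be read as evidence because it chose the genes. For all 10 genes the 8 knockout stroma arrays lay on one side of the wild-type median.

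**Figure D1:**
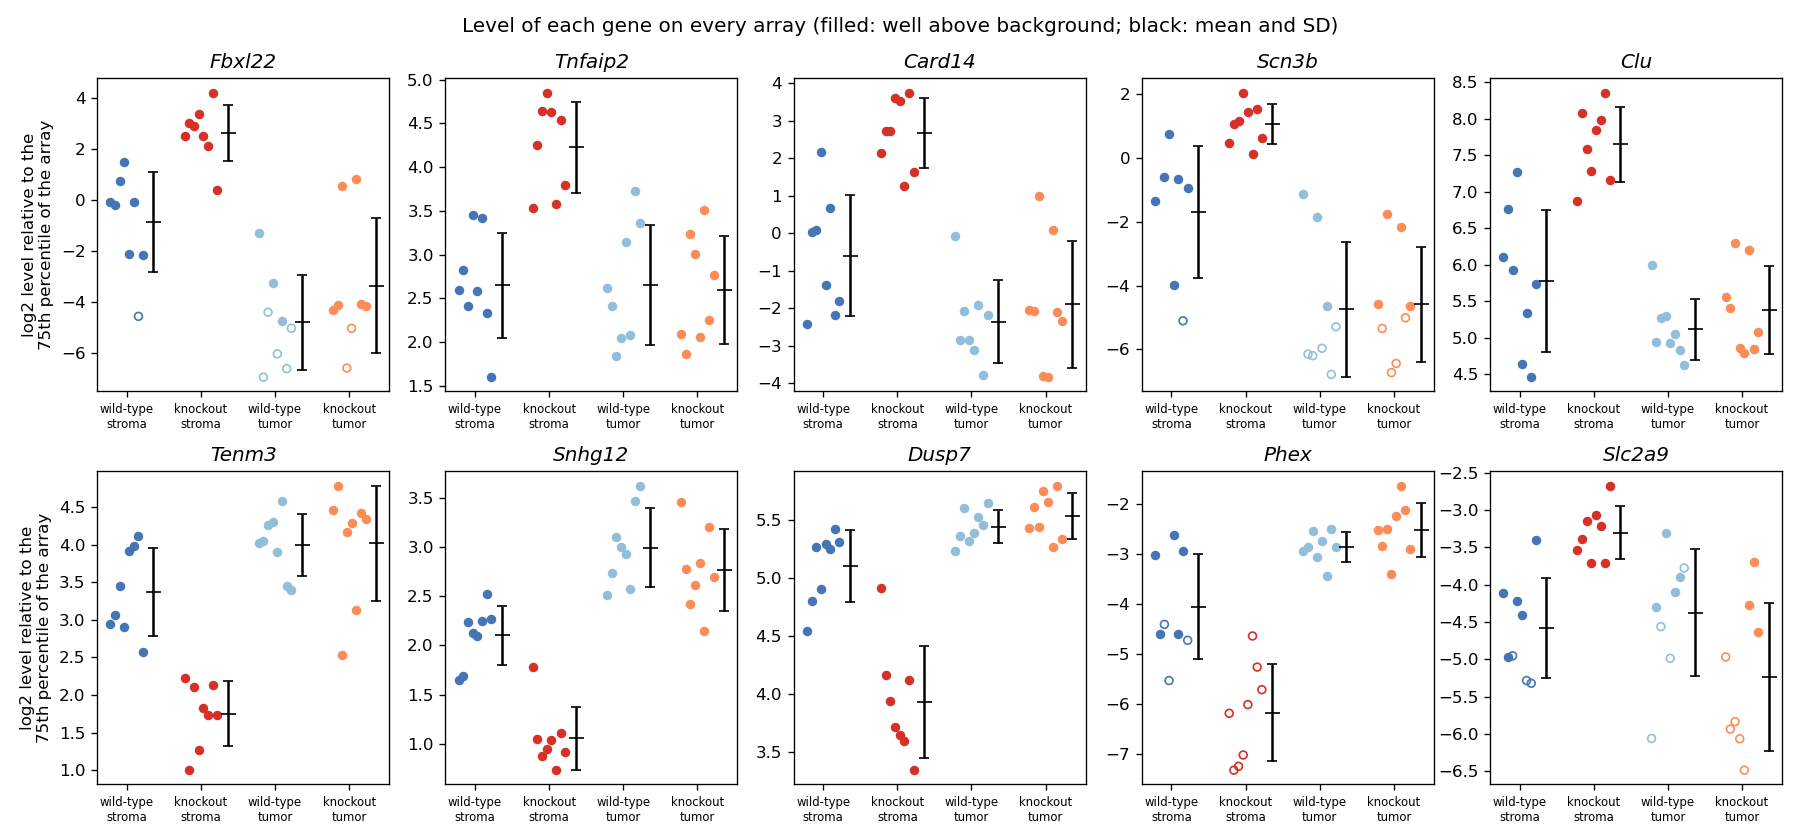
Log2 level of each gene, relative to the 75th percentile of the array, on each of the 32 arrays in 4 groups of 8 (Scn3b has 7 values in wild-type stroma). Filled points were well above background and open points were not, and black marks show the group mean and SD. The mean of knockout stroma lies above the other groups for Fbxl22, Tnfaip2, Card14, Scn3b, Clu and Slc2a9 and below them for Tenm3, Snhg12, Dusp7 and Phex, and only for Tnfaip2 and Tenm3 do the stroma ranges not overlap.

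Among the members higher in knockout stroma, Fbxl22 had the widest difference. Its level ran from -4.57 through a median of -0.15 to 1.47 in wild-type stroma and from 0.36 through 2.69 to 4.19 in knockout stroma. Knockout stroma 99, at the low end, lay below wild-type stroma 5 and 45, and the other 7 knockout arrays lay above every wild-type array. The difference was 3.49 ± 0.59, or 11.3-fold. Within the 5 slides that held both genotypes knockout was higher on all 5, by 0.14 to 6.12. The promoter of Fbxl22 is shown because its window is the only one of the 7 found among the members that holds a CArG box, the site of serum response factor, which acts at many muscle genes. It spans chr9:66514544-66514843 on the minus strand of GRCm38.p6 in RefSeq, from 250 bases before the start of the gene to 50 after it, 5′ to 3′, with the CArG box in capitals.
Fbxl22: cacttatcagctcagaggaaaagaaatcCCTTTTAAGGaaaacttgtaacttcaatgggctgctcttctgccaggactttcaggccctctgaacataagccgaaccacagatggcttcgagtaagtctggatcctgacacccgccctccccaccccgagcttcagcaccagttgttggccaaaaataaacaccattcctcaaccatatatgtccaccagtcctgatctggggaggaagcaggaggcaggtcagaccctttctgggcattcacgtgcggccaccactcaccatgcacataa
The box ends 212 bases before the start. Searched by name on both strands, it occurred in 1.63% of 32851 RefSeq mouse windows of this length. No member's window held the MEF2 site, searched by name (3.19% of windows), or the E-box CAGCTG (16.3%), which can overlap other E-boxes. The NF-kB site occurred in 15.3% of windows and, among the members, in that of Phex alone. Tnfaip2 had a window without it, and Card14 had no window.

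Scn3b had a level from -5.11 through -0.93 to 0.74 in 7 wild-type stroma arrays, since the spot of array 4 was left out as an outlier. In knockout stroma it ran from 0.13 through 1.11 to 2.05. The lowest values were those of wild-type stroma 82 and 65, and 1 wild-type array, number 5, lay within the knockout range. The difference was 2.96 ± 0.54. A dimmer second probe of another transcript, well above background on 9 stroma arrays, differed by 1.75.

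Card14 ran from -2.41 through -0.67 to 2.18 in wild-type stroma and from 1.26 through 2.74 to 3.75 in knockout stroma. Wild-type stroma 5 lay above knockout stroma 81, 99 and 12, and no other wild-type array reached the knockout range. The difference was 3.27 ± 0.58, with both genotypes well above background on every array. Clu was bright in each group, with 4.46 through 5.83 to 7.28 in wild-type and 6.87 through 7.72 to 8.36 in knockout stroma, and differed by 1.87 ± 0.36. Its wild-type highs came from array 5, its lows from arrays 82 and 65.

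Tnfaip2 was the higher member whose groups did not overlap. Its level was 1.60 to 3.45 in wild-type stroma, with a median of 2.59, and 3.53 to 4.85 in knockout stroma, with a median of 4.39. The difference was 1.57 ± 0.27, or 2.98-fold, and a second probe of the same transcript gave 1.49. Of the genes in the fit, 32 (0.129%) had ranges that did not overlap, against 2 of the 10 members, a count that the choice of the members bears on. Slc2a9 was near background in stroma, at -5.32 through -4.68 to -3.40 in wild-type stroma, where 5 of 8 arrays were well above background, and -3.71 through -3.30 to -2.67 in knockout stroma, where all 8 were. It differed by 1.28 ± 0.28, and within slides it was higher on 4 of 5. Its second probe was well above background on no stroma array.

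Among the lower members, Tenm3 ran from 2.57 through 3.26 to 4.12 in wild-type and from 0.999 through 1.78 to 2.22 in knockout stroma. The groups did not overlap, and the difference was -1.62 ± 0.27. It has 4 probes, and the dimmest were well above background on only 7 stroma arrays each, with knockout stroma means of -5.39 and -5.26. All 4 probes were lower in knockout stroma, with differences of plain means from -1.62 to -1.30. Its promoter window is shown because it alone among the 7 holds the cyclic AMP response element TGACGTCA, the letters bound by CREB downstream of cyclic AMP. The window, chr8:48674641-48674940 on the minus strand of GRCm38.p6 in RefSeq, belongs to a start inside the annotated gene, and the element is in capitals.
Tenm3: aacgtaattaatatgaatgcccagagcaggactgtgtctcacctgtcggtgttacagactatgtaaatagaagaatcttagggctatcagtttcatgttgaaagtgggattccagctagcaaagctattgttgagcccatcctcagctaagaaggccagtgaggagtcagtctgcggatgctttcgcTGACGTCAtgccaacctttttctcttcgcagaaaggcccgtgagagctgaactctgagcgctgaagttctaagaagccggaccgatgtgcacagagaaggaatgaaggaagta
The element ends 55 bases before that start and reads the same on both strands. It occurred in 1.79% of 32851 windows, and a match of letters is not evidence of binding.

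Snhg12 lay between 1.65 and 2.52 in wild-type stroma, with a median of 2.18. In knockout stroma 7 arrays lay between 0.73 and 1.11, and array 12 stood apart at 1.78, inside the wild-type range. The difference was -1.05 ± 0.19. Dusp7 was between 4.54 and 5.42 in wild-type stroma, with a median of 5.26, and between 3.34 and 4.91 in knockout stroma, with a median of 3.83. Knockout stroma 12 was again the highest, level with wild-type stroma 5 at 4.90, and the difference was -1.17 ± 0.22. Both genes were lower in knockout on all 5 slides, with differences of -1.26 to -0.49 for Snhg12 and of -1.58 to -0.40 for Dusp7.

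Phex did not enter the stroma fit, because 5 wild-type and 0 knockout stroma arrays were well above background. Its wild-type values ran from -5.53 through -4.50 to -2.62, and the 3 highest were arrays 65, 82 and 1. The measured means were -4.06 in wild-type and -6.18 in knockout stroma. Set against a floor, for each knockout array the weakest signal that still counted as well above background, the wild-type mean was 2.62-fold higher. Without wild-type stroma 65 and 82 it was 1.95-fold higher, with 3 wild-type arrays well above background. Both wild-type means include arrays not well above background, so neither value is a strict lower bound. A second probe of the same transcript was well above background on no array, and its plain means differed by -0.08 in stroma.

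In bulk RNA, fewer cells of a type and less RNA per cell cannot be told apart, and both Ckm and Aurka differed between the groups: Ckm by 2.26 ± 0.98 and Aurka by -1.45 ± 0.54. The stroma difference of each gene was therefore refitted with Ckm, with Aurka and with both as covariates. Over the 6999 genes with an unadjusted p under 0.05, the median share of the difference left was 49.4% with Ckm, 34% with Aurka and 31.9% with both. The share of all genes at an unadjusted p under 0.05 was 8.07% with Ckm, 2.76% with Aurka and 4.13% with both. For the 9 members the share left with both was 58.8% to 101%. They come from the arrays that chose the members and are a description.

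Tnfaip2 and Card14 kept nearly the same difference, 1.59 ± 0.30 and 3.11 ± 0.76 with both covariates. Fbxl22 kept 3.01 ± 0.68, or 86.2%. Snhg12 kept 78.6%, Dusp7 74%, Clu 71.1%, Tenm3 68.9% and Slc2a9 65.8%. Scn3b lost most: its difference was 2.96 without covariates, 2.02 with Ckm, 1.77 with Aurka and 1.74 with both. Leaving out wild-type stroma 65 and 82 left 57.7% in the median of the same 6999 genes. It left 59.3% for Scn3b (1.76), 84.4% for Fbxl22 (2.95), 93% for Card14 (3.05) and 104% for Tnfaip2 (1.63), and 93.5% for Dusp7, 92.1% for Snhg12 and 86.7% for Slc2a9. Where the 3 stroma arrays that went against the sex label were dropped, Scn3b was at 3.44, Tenm3 at -1.90 and Tnfaip2 at 1.39. When slide was a block, the 9 differences kept their sign, and that of Slc2a9 was 0.89.

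**Figure D2:**
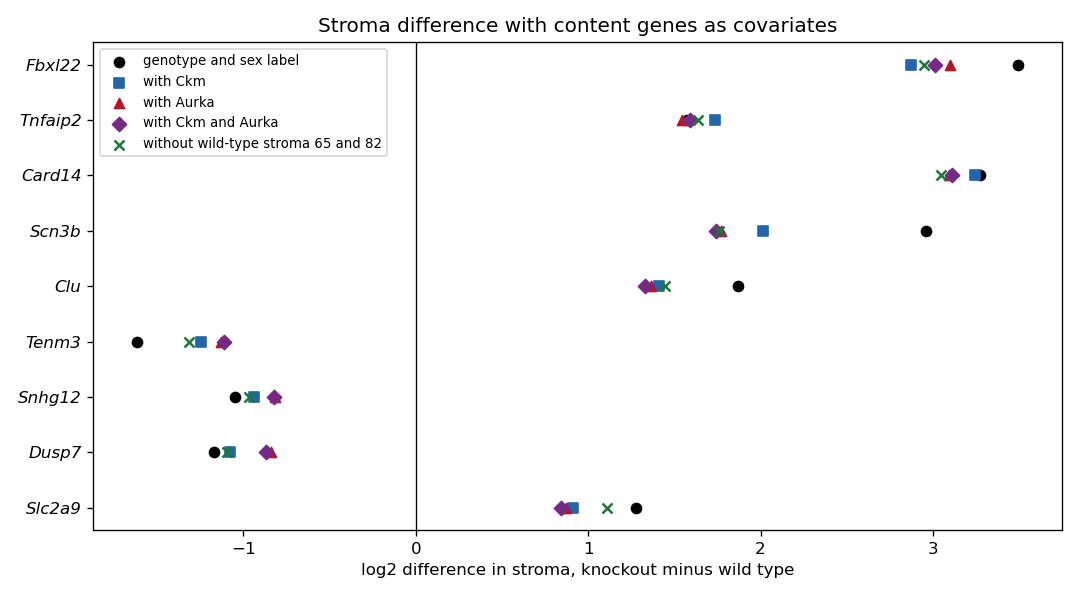
Log2 difference between knockout and wild-type stroma (horizontal axis) for 9 genes, fitted with genotype and sex label alone, with Ckm, Aurka or both as covariates, and without wild-type stroma 65 and 82. Scn3b moves from 2.96 to between 1.74 and 2.02, while the points of Card14 lie between 3.05 and 3.27.

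The dependence on muscle content was tested as the slope of each gene on Ckm within groups of one genotype and sex label. In stroma 2 of the 9 members passed, against 40.4% of all genes. The same arrays had chosen the members, and a small p for genotype favours genes with little spread within groups. The counts of members with a slope in stroma are therefore not read against the shares of all genes. Scn3b rose by 0.38 ± 0.10 log2 units per log2 unit of Ckm (limma adjusted p = 0.00846), and Tenm3 fell by 0.16 ± 0.06 (adjusted p = 0.0401). Slc2a9 (0.16 ± 0.06, adjusted p = 0.0502), Clu (0.20 ± 0.08, adjusted p = 0.0563) and Fbxl22 (0.27 ± 0.14, adjusted p = 0.142) did not pass. Card14 had a slope of 0.01 ± 0.16 and Tnfaip2 of -0.07 ± 0.07, with adjusted p of 0.953 and 0.418.

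The slopes in stroma rested on few arrays. Without wild-type stroma 65 and 82 none of the 9 passed, against 46.9% of all genes, and the slope of Scn3b was -0.14 ± 0.28. Without wild-type stroma 82 alone it was 0.33 (adjusted p = 0.0703), and without wild-type stroma 9, which has the highest Ckm (9.20), it was 0.06 (adjusted p = 0.879). For Tenm3 the call ended without any of wild-type stroma 1, 9, 65, 68 or 82 or knockout stroma 59B, with slopes of -0.16 to -0.15. Without wild-type stroma 9, Fbxl22 had a slope of 0.65 ± 0.19 (adjusted p = 0.0364) and Clu of 0.41 ± 0.11 (adjusted p = 0.0256). Clu also passed without wild-type stroma 5 (0.21, adjusted p = 0.0253). Slc2a9 passed without any 1 of wild-type stroma 4, 5 or 65 or knockout stroma 95 or 99, with slopes of 0.17 to 0.19 and adjusted p from 0.0157 to 0.0488.

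The slope on Aurka, a measure of dividing cells, passed in stroma for 2 of 9 members, against 32.5% of all genes. The limit set by the choice of the members holds here too. Scn3b fell by 0.72 ± 0.20 per log2 unit of Aurka (adjusted p = 0.0151), and Tenm3 rose by 0.34 ± 0.10 (adjusted p = 0.0231). Dusp7 (0.23 ± 0.09, adjusted p = 0.0702), Slc2a9 (-0.28 ± 0.12, adjusted p = 0.0889) and Snhg12 (0.16 ± 0.08, adjusted p = 0.138) did not pass. Ckm and Aurka were not independent in stroma: the deviations from group means had r = -0.75 over 16 arrays. With both in the fit 0 of 9 members passed for either. Without wild-type stroma 65 and 82 no member passed for Aurka, and 1 of 24460 genes did. Without wild-type stroma 9 the slope of Scn3b was -0.28 (adjusted p = 0.504), that of Tenm3 was 0.29 (adjusted p = 0.0988), that of Dusp7 was 0.37 (adjusted p = 0.0125) and that of Snhg12 was 0.27 (adjusted p = 0.0254). Without wild-type stroma 82 alone Scn3b (-0.59, adjusted p = 0.0663) and Tenm3 (0.31, adjusted p = 0.0896) no longer passed, and Tenm3 also not without 65 (0.34, adjusted p = 0.0588). Slc2a9 passed without wild-type stroma 4 (-0.37, adjusted p = 0.0174) and Clu without knockout stroma 99 (-0.45, adjusted p = 0.0229).

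Tumor arrays, which the choice of genes did not use, gave a separate view of the same genes. Genotype and slide were partly mixed: slides 1 and 6 held knockout tumor arrays alone and slide 5 wild-type tumor arrays alone. No member passed the genotype test in tumor: 0 of the 8 in that fit, and 0 of 23752 genes in limma, with 3.31% of all genes and no member at an unadjusted p under 0.05. Ranges that did not overlap between genotypes in tumor were found for 0 members and for 0 (0%) of 23752 genes. Tnfaip2 was at 1.84 through 2.51 to 3.72 in wild-type and 1.86 through 2.51 to 3.51 in knockout tumor, a difference of -0.06 ± 0.24. Tenm3 was at 3.40 through 4.03 to 4.58 and 2.53 through 4.31 to 4.78, a difference of 0.02 ± 0.25. Card14 differed by 0.46 ± 0.54, Clu by 0.26 ± 0.23, Snhg12 by -0.23 ± 0.19, Dusp7 by 0.09 ± 0.11 and Phex by 0.34 ± 0.21, with adjusted p from 0.976 to 0.994 over the 8. Content markers were not level between the genotypes in tumor either. All 22 muscle markers and all 19 cell cycle genes had positive differences, with medians of 1.69 and 0.33, and none passed. Ckm differed by 2.22 ± 1.29. Without the 3 tumor arrays highest in Ckm Card14 differed by 0.05 ± 0.39, Clu by 0.04 ± 0.16 and Tenm3 by 0.36 ± 0.17. Without the 2 tumor arrays that went against the sex label they differed by 1.16 ± 0.49, 0.59 ± 0.18 and -0.37 ± 0.17, and no member passed in either fit. With slide as a block the tumor differences ran from 0.000197 (Tnfaip2) to 1.90 ± 1.14 (Fbxl22). That of Snhg12 became positive (0.06 ± 0.31), and no member passed.

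Fbxl22 was at -6.95 through -4.90 to -1.31 in wild-type tumor and at -6.60 through -4.14 to 0.82 in knockout tumor, a difference of 1.43 ± 0.80 (limma adjusted p = 0.976). It was well above background on 3 wild-type and 6 knockout tumor arrays. Scn3b and Slc2a9 were well above background on 7 tumor arrays each and did not enter the tumor fit. For Slc2a9 only 4 wild-type and 3 knockout tumor arrays were well above background, with measured means of -4.37 ± 0.85 and -5.24 ± 0.99 (SD, n = 8 each), and within slides knockout was higher on 2 of 3, so no order is read from them. Whether the genotype difference itself differs between the tissues was not tested, since the stroma values had chosen the genes.

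**Figure D3:**
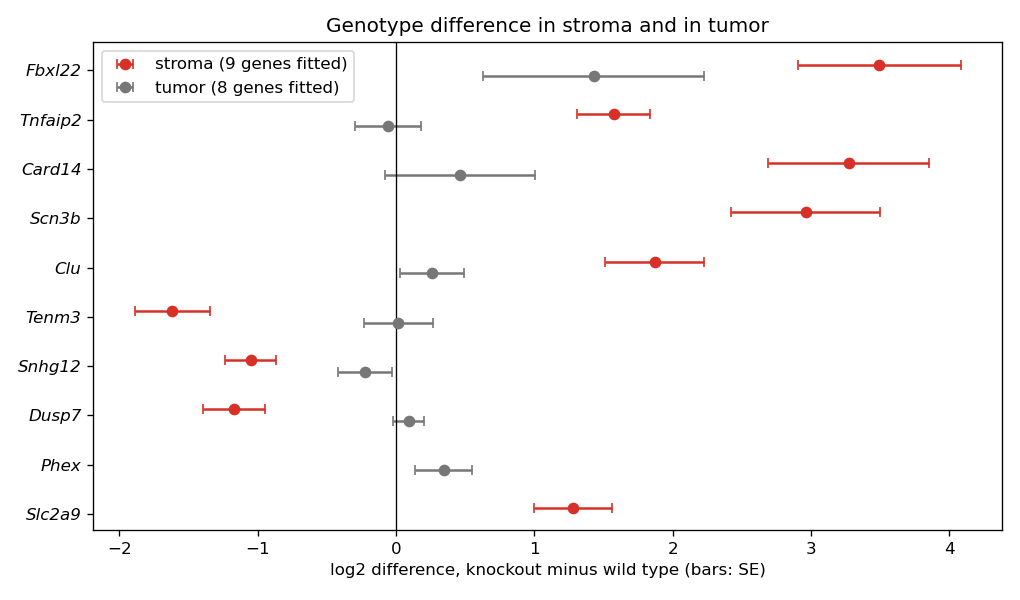
Log2 difference, knockout minus wild type, with its standard error, in stroma (red, 9 genes) and in tumor (grey, 8 genes). The tumor values lie between -0.23 and 0.46 except for Fbxl22 at 1.43, and the stroma values chose the genes.

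In tumor the slope on Ckm passed for 1 of 8 members, Card14, against 1.01% of all genes. Card14 rose by 0.37 ± 0.05 log2 units per log2 unit of Ckm (limma adjusted p = 0.00258), and the deviations of the pair from their group means had r = 0.89 over 16 arrays. The 3 tumor arrays highest in Ckm, knockout tumor 81 (4.74) and 15 (4.54) and wild-type tumor 1 (3.67), were also the 3 highest in Card14, at 0.09, 0.997 and -0.08, while the other 13 tumor arrays lay between -3.84 and -1.91. The next tumor array had Ckm at 0.89. Without those 3 arrays the slope of Card14 was 0.26 ± 0.05 (adjusted p = 0.139), and with slide as a block it was 0.40 ± 0.07 (adjusted p = 0.0614). It passed in each of the 16 fits that left out 1 array.

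The same 3 tumor arrays were the highest of the 16 for Fbxl22 (-1.31 to 0.82) and for Clu (5.99 to 6.30). Fbxl22 had a slope of 0.40 ± 0.13 (adjusted p = 0.207) and Clu of 0.12 ± 0.04 (adjusted p = 0.157), which did not pass. Fbxl22 passed with quantile scaling (0.44, adjusted p = 0.0271), with normexp (0.44, adjusted p = 0.00712) and with the sex label left out (0.52, adjusted p = 0.00439). Clu passed with normexp (0.19, adjusted p = 0.0437), with array weights (0.15, adjusted p = 0.0418) and with the sex label left out (0.12, adjusted p = 0.0211), and without the 3 arrays its slope was 0.05 (adjusted p = 0.884). The mean of the 22 skeletal muscle markers ran from -3.44 to 4.49 in wild-type and from -3.78 to 5.64 in knockout tumor, and its part in these levels beyond the slope on Ckm was not tested. Tnfaip2 had a slope of 0.06 ± 0.05 (adjusted p = 0.739), Tenm3 of -0.08 ± 0.05 (adjusted p = 0.659) and Phex of 0.01 ± 0.04 (adjusted p = 0.935). On Aurka 0 of 8 members passed in tumor and 0 of 23752 genes did, with 13.3% of genes and no member at an unadjusted p under 0.05.

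**Figure D4:**
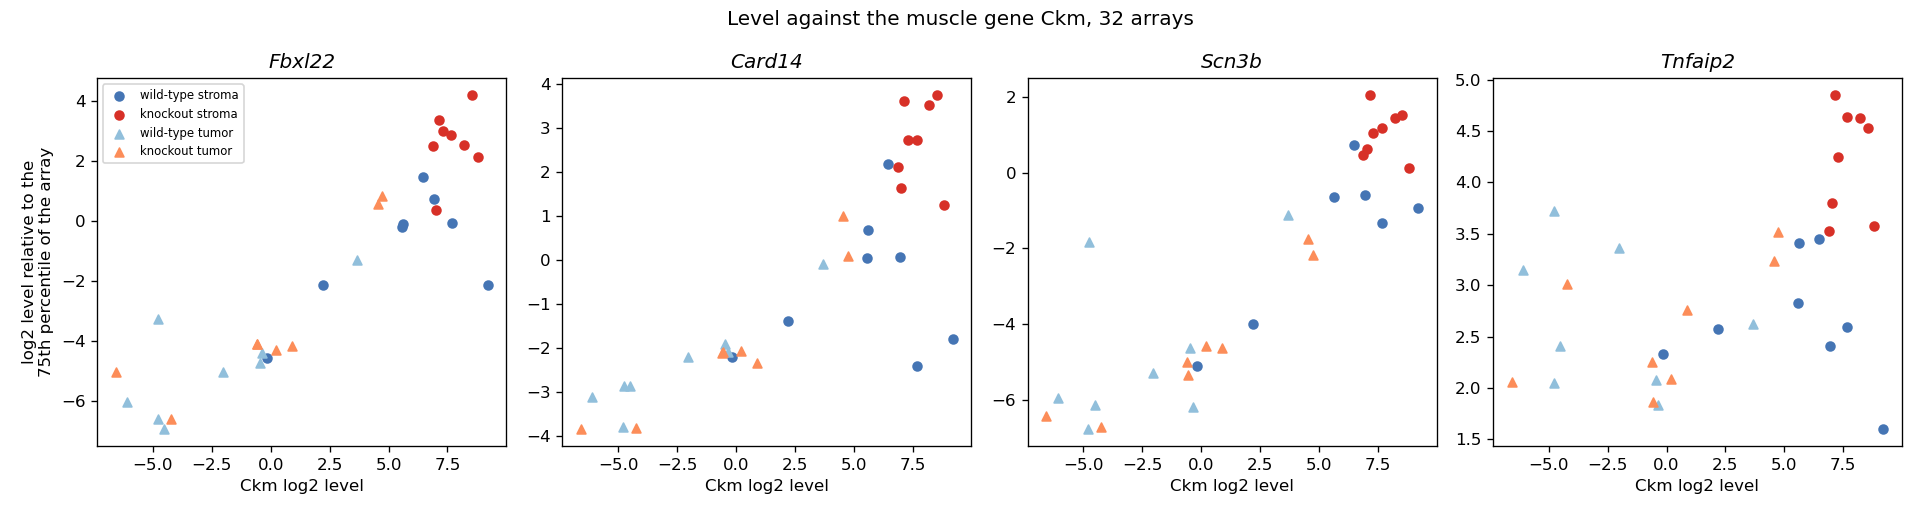
Log2 level of Fbxl22, Card14, Scn3b and Tnfaip2 against the log2 level of Ckm on the same array, for stroma (circles) and tumor (triangles) of both genotypes, 32 arrays (31 for Scn3b). Card14 rises with Ckm across the tumor arrays, while in wild-type stroma the 2 arrays with the highest Ckm, 1 and 9, have Card14 at -2.41 and -1.80.

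In the fit of stroma against tumor over 32 arrays 62.8% of all genes passed (25.8% higher in stroma and 37.1% higher in tumor). Of the members, Card14, Clu, Dusp7, Snhg12, Tenm3 and Tnfaip2 were well above background on every array, and under a filter that asks for this 6 of 6 passed, against 65.1% of the genes left. Phex (well above background on 5 stroma and 16 tumor arrays), Scn3b (15 and 7) and Slc2a9 (13 and 7) met the filter of 8 arrays through the tissue where they are high, so that their passing is not read as support. This comparison uses the same stroma arrays that chose the genes, so its directions are given beside the genotype values and not counted as separate evidence. Higher in stroma were Fbxl22 by 4.95 ± 0.51, Card14 by 3.16 ± 0.41, Clu by 1.47 ± 0.22 and Tnfaip2 by 0.81 ± 0.18. Their limma adjusted p ran from 4.02e-08 (Fbxl22) to 0.000357 (Tnfaip2). Scn3b (4.24) and Slc2a9 (0.86) were also higher by measured signal. No error is given for them, since most of their tumor arrays were not well above background. Higher in tumor were Tenm3 (-1.45 ± 0.19), Snhg12 (-1.30 ± 0.13) and Dusp7 (-0.97 ± 0.12), with adjusted p from 3.70e-08 (Snhg12) to 4.32e-07 (Tenm3). The median over all genes was -0.14, and no member's tissue ranges separated, against 0.0664% of all genes whose ranges did. The level of Phex in knockout stroma has only a bound, so no difference with an error is given for it. Without wild-type stroma 65 and 82 Scn3b was at 4.85, Tenm3 at -1.60 and Tnfaip2 at 0.78.

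The order of the 4 group means differed among the members. Tnfaip2 had means of 2.65 ± 0.60, 2.65 ± 0.69 and 2.60 ± 0.62 (SD, n = 8 each) in wild-type stroma, wild-type tumor and knockout tumor, whose ranges overlap, and 4.22 ± 0.52 in knockout stroma. Fbxl22, Card14, Scn3b and Clu fell in the order knockout stroma, wild-type stroma, knockout tumor, wild-type tumor, and the tumor groups overlapped. Clu, for example, had means of 7.65 ± 0.51, 5.78 ± 0.97, 5.38 ± 0.60 and 5.12 ± 0.42 in that order. Wild-type stroma 5 (7.28) lay within the knockout stroma range, and the last 3 groups overlapped. Slc2a9 was highest in knockout stroma (-3.30 ± 0.35), and its other groups, near background, overlapped. For Tenm3, Dusp7 and Phex knockout tumor was highest, then wild-type tumor, wild-type stroma and knockout stroma, and for Snhg12 the tumor groups changed places. Dusp7 in tumor was narrow, at 5.44 ± 0.14 and 5.53 ± 0.19. Phex was well above background on all 16 tumor arrays, and in knockout tumor it was at least 7.58-fold higher than in knockout stroma.

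The difference of the genotype effect between hosts labelled male and female was not past the threshold for any of 9 members in stroma, nor for any of 24784 genes, with 0.718% of genes at an unadjusted p under 0.05. Scn3b was the only member below that limit, with 2.44 ± 1.08 (male minus female, limma adjusted p = 1). Wild-type stroma 65 and 82, which stood apart and held its lowest values (-4.00 and -5.11), are both labelled male, and without them 0 of 9 members passed. The 3 stroma arrays against their sex label enter this test as labelled.

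Among themselves, the members higher in knockout stroma mostly varied together within groups. Of 15 pairs, 12 had a positive correlation of deviations over the stroma arrays, with a median r of 0.51 and a range of -0.39 to 0.77. Of the 6 pairs of lower members 4 were positive, with a median of 0.39, and the 24 mixed pairs had a median of -0.30. The stroma arrays differed in tissue make-up, which these correlations do not remove, so these values are a description. Pairs with Phex rest mostly on background signal, since it was well above background on 5 wild-type and 0 knockout stroma arrays.

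The genes most like each member, by the correlation of deviations over the 16 stroma arrays among 15050 ranked genes, differed between members. Tnfaip2 was nearest to Sbno2 (r = 0.87), Midn (0.83) and Cemip2 (0.83), whose own stroma differences were 0.63, 0.07 and 0.40. Card14 was nearest to Gm13889 (0.84), Serpinb1c (0.83) and Serpinb1a (0.82), which differed by 1.67, 2.48 and 2.32. Scn3b was nearest to Stx7 (0.94 over 15 arrays), Togaram2 and Prkg1, and Fbxl22 to Tpd52 (0.88) and Prss23. Tenm3 was nearest to Chic1 (0.93), Lrrn3 (0.91) and Plac1 (0.90), with differences of -1.60, -2.27 and -2.84. Clu was nearest to Atp9a (0.90), Snhg12 to Tgds (0.91), Dusp7 to 2410004P03Rik (0.94), Phex to Abhd17c (0.87) and Slc2a9 to Usp53 (0.90). The value of Phex rests mostly on background signal.

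Families of the members were followed through 10 lists of related genes, none of which held a gene past the genotype test in stroma or tumor. Of 16 ubiquitin ligase genes of striated muscle other than Fbxl22, 13 were higher in stroma than in tumor and 1 lower, against 25.8% and 37.1% of all genes, with a median difference of 4.67. Fbxo32 (atrogin-1, a muscle F-box protein) was higher by 5.998 ± 0.62 and Klhl41, a sarcomere protein, by 6.34 ± 0.65. Their genotype differences in stroma were 2.65 ± 0.86 and 1.85 ± 0.82. Of 9 sodium channel subunit genes tested, 8 were higher in stroma, among them Scn4a, the channel of skeletal muscle, by 4.44 ± 0.45. All 9 had a positive genotype difference in stroma, with a median of 1.44 against 0.08 over all genes, and none passed. Of 14 extracellular chaperone and complement regulator genes, 12 were higher and 2 lower in stroma than in tumor, led by Vtn (vitronectin) at 4.18 ± 0.37. Only 5 of the 9 sodium channel genes entered the tumor fit, against 14 of the 16 ligase genes and 13 of the 14 chaperone and complement genes. Genes that met the filter through stroma tend to be higher there, so their passing is not read as support.

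The lists of Tnfaip2 and Card14 hold NF-kB genes. Of 17 genes induced by tumor necrosis factor, 3 were higher in stroma and 5 in tumor, and their median genotype difference in stroma was 0.27. Birc3, an inhibitor of apoptosis, was higher in stroma by 1.34 ± 0.20 and Cxcl1, a neutrophil chemokine, was lower (-2.47 ± 0.45). Of 12 genes of the CARD-BCL10-MALT1 complex, 6 were higher in stroma and 3 lower. Card10, a paralog of Card14, was higher by 2.29 ± 0.27 and had a genotype difference of 1.23 ± 0.45. Neutrophil markers had a median genotype difference in stroma of -0.01 (6 tested), macrophage markers of 1.03 (13 tested, all positive) and endothelial markers of 0.66 (12 tested, all positive), with no marker past the test. All 14 adipocyte markers (median 1.70), 10 of 11 fibroblast markers (0.56), 9 of 10 Schwann cell and nerve markers (1.08), 7 of 7 B cell markers (1.55) and 10 of 10 T cell markers (0.61) also had positive differences. The part of these cell types in the levels of the members was not tested. Of 11 keratinocyte markers 3 entered the stroma fit, and 2 were well above background on no array in the series. Their mean level lay between -4.88 and -3.68 in wild-type and -4.81 and -4.05 in knockout stroma.

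Among the lists of the lower members, that of small nucleolar RNA host genes also held Epb41, which is not such a host gene. Of the 13 genes in this list 12 were lower in stroma than in tumor and 1 higher, with a median of -1.05. Snhg5 was lower (-1.66 ± 0.16) and Snhg15 also (-1.77 ± 0.21). The same list had 12 negative genotype differences in stroma of 13, with a median of -0.74 and none past the test. The 1 positive difference was that of Epb41 (0.41 ± 0.33). Of 18 MAP kinase phosphatase and ERK feedback genes, 12 were lower in stroma and 4 higher. Etv4, an ERK-induced transcription factor, was lower (-2.45 ± 0.29) and had a genotype difference of -2.34 ± 0.51, while Spry2, an inhibitor of the same pathway, was lower (-0.92 ± 0.11). Of 9 genes related to teneurins and latrophilins, 6 were lower and 2 higher in stroma. Adgrl3, a latrophilin, was lower (-2.76 ± 0.40), and Unc5b, a netrin receptor, also (-2.24 ± 0.29). The phosphate genes listed with Phex (2 higher and 5 lower of 12) and the transport genes listed with Slc2a9 (4 and 4 of 13) went both ways. Abcg2, which exports urate, was higher in stroma by 3.35 ± 0.31 and Slc2a1, a glucose transporter, was lower (-1.86 ± 0.22).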

How the data were processed

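Total RNA of 32 samples was hybridised to one-colour arrays. The deposited scanner files hold processed signals as intensity on a linear scale, and the submitters' processing notes name Agilent Feature Extraction 10.7.3.1. The log2 values in the deposited series matrix had been scaled and centred by the authors, as the values show: 99.5% (stroma) and 98.7% (tumor) lay within 0.01 of log2 values scaled here and centred per probe on the tissue median. Their column medians ran from -0.315 to 0.563, and the scale, centring and direction follow from this match, not from a stated method.

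Each value is log2 intensity minus the array's 75th percentile (402.6 to 1133 in intensity), with outlier spots (58 to 483 per array) left out. Of 56605 probes 32994 matched RefSeq names (GRCm38.p6, used for names and promoter windows). Genes were tested where well above background on at least 8 arrays, with at most 2 missing values, using limma 3.58.1 in R 4.3.3, with 1 mean per genotype and sex label and Benjamini-Hochberg adjustment over all genes. Slopes add Ckm or Aurka to that fit. Nothing states that samples came from separate animals, so p-values measure the spread between these samples. The scripts were tested on simulated data. The number of arrays limits the precision.

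The members and lists were chosen with earlier results of these data known. Genes named beyond the members are the 3 most alike per member, and in each related list the 3 smallest p among genes past the test of stroma against tumor (2 smallest p otherwise), of which some are given. Alternatives were normexp (offset 50, on the median signal), quantile scaling, filters, mean of probes, array weights, slide, sex label, replicate number, the series matrix and leaving out arrays. Normexp on the median signal and the fits without the 3 tumor arrays highest in Ckm or the tumor arrays against their sex label were chosen after seeing the data. Of the promoter windows 7 of 10 members had one.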

Additional observations from a re-analysis of the deposited data

Results flagged for a closer look

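Of 40 groups, 10 genes in 4 groups of 8 arrays each (7 values for Scn3b in wild-type stroma), 1 held an array whose gap to its nearest neighbour was wide for the range of its group. Snhg12 on knockout stroma 12 was at 1.78, where the next of the 8 arrays was at 1.11. Chance flags about 1 in 20 groups.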

How the results depend on the processing

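Of the 24784 genes in the stroma genotype fit 0 passed, but 9 of 9 members passed with array weights (with 65.2% of all genes), without the arrays against their sex label (23%), and without wild-type stroma 4 (21%) or 9 (33.9%), and 3 without knockout stroma 12, so leaving out 1 array gave 0 to 9; the genes were chosen on this contrast. In tumor 0 members passed the genotype test in all alternatives run. Stroma against tumor called 10 members, among them Phex, Scn3b and Slc2a9, whose passing is not read as support, and 6 of 6 under the filter on all arrays. With the mean of all probes 9 passed, and Slc2a9 was at 0.24 (adjusted p = 0.348). For the slope on Ckm in stroma (2 members) the count was 0 with Aurka beside it, with the mean of probes and without the 2 farthest arrays (which are wild-type stroma 65 and 82), 1 with no filter, normexp or slide, 4 with the list mean or without the sex label, 5 with array weights, and 0 to 4 leaving out 1 array. The slope of Scn3b was -0.139 without wild-type stroma 65 and 82 and -0.00327 without the arrays against their sex label. For Aurka in stroma (2) it was 0 with Ckm beside it, with the mean of probes and without those 2 arrays, 1 with no filter, the filter on all arrays, slide or no sex label, and 0 to 3 leaving out 1 array. For Ckm in tumor (1) it was 2 with array weights or quantile scaling, 3 with normexp or no sex label, and 0 with slide or without the 3 arrays highest in Ckm. Genotype by sex called 3 with array weights. The causes were not tested.

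Replicate numbers are shared by 15 pairs of a stroma and a tumor array. The correlation of deviations within these pairs ran from -0.123 to 0.355, was over 0.1 for 8 pairs and was negative only for wild-type 4. Knockout 95 and 99 went against the sex label in both tissues, and wild-type 9 in stroma alone. Whether a shared number marks the same host was not settled, and the main fits have no replicate block. With replicate number as a fixed or a random block 10 members passed the test of stroma against tumor, as without it, with the same limit for Phex, Scn3b and Slc2a9. Signals near background limit Phex in stroma and Scn3b and Slc2a9 in tumor.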
